A study of Mus musculus with 34 samples.

Results

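The 32 genes described here encode enzymes and carriers of fatty acid beta-oxidation, together with a few linked genes. They were taken by name from a fixed list, and they are 32 of the 23109 genes in the deposited RNA-Seq values. The list was chosen with earlier results of these data known. Of these members, 21 were assigned to the mitochondrial pathway and 6 to the peroxisome, 2 encode acyl-CoA thioesterases, and 3 are linked genes (*Pdk4*, *Ucp2*, and *Ucp3*). Each gene was placed in a single group, wherever else its product may act.

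RNA-Seq was performed in 3 experiments on brown preadipocytes of C57BL/6J strain that had been immortalized with SV40T. In the adipogenesis experiment, cells carrying a retroviral vector for WT or K36M mutant histone H3.3 were collected at D0, D2, and D7 (6 libraries). Differentiation was induced with insulin, T3, IBMX, dexamethasone, and indomethacin. In the ligand experiment, WT and K36M cells also received PPARγ (PPARg in the labels) from a retroviral vector. While sub-confluent, these cells were given DMSO or Rosi, rosiglitazone, a synthetic PPARγ ligand (4 libraries). In the *Nsd2* experiment, cells with a control shRNA (Con) or an shRNA against the H3K36 methyltransferase gene *Nsd2* (shNSD2) were collected at D0 and D2 (4 libraries). The methods describe cells of newborn WT mice, whereas the labels describe cells with a floxed glucocorticoid receptor gene infected with either an empty or a Cre virus, and they do not say which virus each library had. The mutant histone was made beside the endogenous H3, and the sources do not name which *Nsd2* shRNA was sequenced. For the ligand experiment the labels give time 0 for DMSO and 24 h for Rosi, whereas the study describes treatment for that time with both, and if the labels hold, the ligand and the time in culture cannot be told apart. Each condition had 1 library, and therefore no difference below has a replicate check or a p-value.

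Beta-oxidation shortens fatty acids step by step to acetyl-CoA. In mitochondria, acyl groups enter through the carnitine shuttle, acyl-CoA dehydrogenases open each cycle and pass electrons through the electron transfer flavoprotein, and hydratases, dehydrogenases, and thiolases complete it. Peroxisomes shorten very long and branched chains with oxidases and their own thiolases. Brown fat burns fatty acids for heat, and PPARγ, the master transcription factor of adipogenesis, works through direct repeats in DNA that many genes of lipid metabolism carry.

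Levels are given as RPKM, the reads of a transcript scaled to its length and to the mapped reads of its library. Mapped reads recovered from these values ranged from 12213559 to 24365867 per library. Differences between libraries are given as log2 ratios of RPKM with 95% Clopper-Pearson intervals of the reads, which cover counting error only. Members count as up-regulated or down-regulated where the ratio exceeds 2-fold in that direction, and each count is set beside the percentage of all genes called the same way. Of the 32 members, 31 were above 0 in every library and 29 reached 5 RPKM in at least 1 library. *Ucp3* had at most 4 reads in any library, so its calls carry no information and no ratio is given for it. The counts of members still include *Ucp3*. Beside the counts where it is named, these are the members up-regulated from D0 to D7 in WT and in K36M cells. It is also counted among those up-regulated from D0 to D2 in Con cells and by Rosi in K36M cells.

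The target of the knockdown was lower in the shNSD2 libraries, where *Nsd2* had 5.85 and 7.01 RPKM at D0 and D2, than in the Con libraries with 19.9 and 29.0 RPKM. All 8 listed adipocyte markers reached 1 RPKM in each experiment, and *Fabp4*, a fatty acid carrier of adipocytes, had 37.6, 3249, and 2644 RPKM at D0, D2, and D7 in WT cells. Of 6 brown fat markers, *Ucp1* stayed at or below 0.194 RPKM, *Cidea* at or below 0.0973 RPKM, and *Dio2* at or below 0.0543 RPKM in all 14 libraries. The other 3 were detected at low levels and reached 7.38 RPKM for *Elovl3* in WT cells at D2, 6.32 RPKM for *Ppargc1a* in WT cells at D7, and 3.36 RPKM for *Prdm16* in K36M cells at D2. Among 6 muscle markers, *Acta1* reached 67.5 RPKM while the other markers stayed at or below 0.223 RPKM. The summed markers of macrophages, endothelial cells, and hepatocytes stayed at or below 3.303, 2.47, and 0.578 RPKM. The macrophage sum lacks the listed marker *Cd68*, which matched no gene.

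The summed RPKM of the 21 mitochondrial members was 298, 812, and 849 at D0, D2, and D7 in WT and 291, 681, and 429 in K36M cells. With DMSO and Rosi the same sum was 411 and 842 in WT cells with PPARγ and 425 and 673 in K36M cells with PPARγ. At D0 and D2 it was 329 and 569.8 in Con cells and 373 and 315 in shNSD2 cells. The mitochondrial sum was therefore higher at D2 or with Rosi in every control arm, reached similar heights in WT cells at D2, at D7, and with Rosi, and was lower at D2 than at D0 only in shNSD2 cells among the arms compared. Most of that difference in shNSD2 cells was *Cpt1a*, which went from 62.02 to 15.1 RPKM, and over the 21 genes the median log2 ratio was -0.014, with 10 higher and 11 lower. In bulk RNA, fewer cells of a type and less RNA per cell cannot be told apart.

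The 6 peroxisomal members together had 44.6, 97.5, and 115 RPKM at D0, D2, and D7 in WT and 39.3, 88.3, and 68.1 RPKM in K36M cells. Their sum with DMSO and Rosi was 47.9 and 137 RPKM in WT cells with PPARγ and 52.0 and 97.3 RPKM in K36M cells with PPARγ, and at D0 and D2 it was 50.4 and 72.8 RPKM in Con and 53.0 and 55.3 RPKM in shNSD2 cells. Peroxisomal members made up between 10.4% and 14.9% of the summed RPKM of these 6 and the 21 mitochondrial members over the 14 libraries. That share describes the listed members only, and other genes of the peroxisome, such as *Scp2*, are outside both sums. The share of the 6 went from 13.0% to 10.7% by D2 in the WT course, and from 10.4% to 13.99% between DMSO and Rosi in WT cells with PPARγ. The mitochondrial sum was 2.73-fold and the peroxisomal sum 2.19-fold as high at D2 as at D0 in WT cells, and with Rosi the folds were 2.05 and 2.86. Single genes weighed on the peroxisomal folds. *Pex11a* went from 7.61 to 42.0 RPKM by D2 in WT cells, and *Acaa1b* from 9.504 to 45.2 RPKM with Rosi. By D2, 4 of the 6 were higher and 2 lower, and with Rosi all 6 were higher. The median log2 ratio was 1.23 over the mitochondrial and 0.72 over the peroxisomal members by D2, and 1.10 and 1.27 with Rosi.

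**Figure D1:**
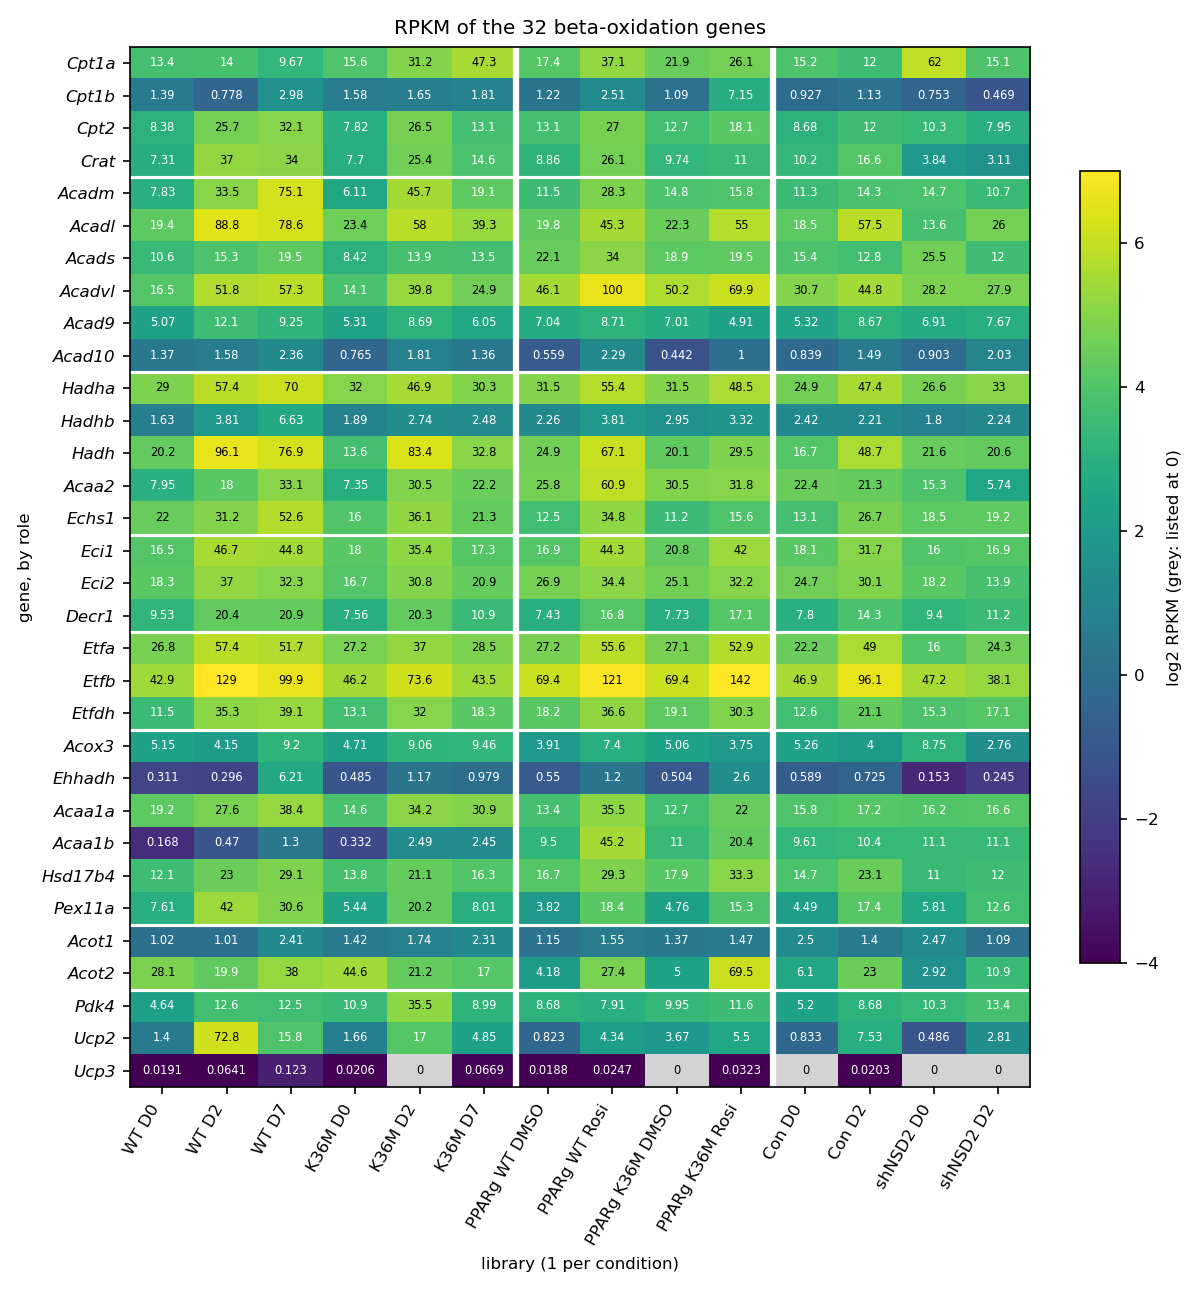
RPKM of the 32 members (rows, ordered by role and separated by white lines) in the 14 libraries (columns, with the 3 experiments separated), colored by log2 RPKM, with the RPKM printed in each cell. *Etfb* held the highest median over the libraries, and the *Acaa1b* row is dark in the 6 adipogenesis libraries and brighter in the other 8.

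From D0 to D2, 20 of the 32 members were up-regulated in WT cells and 0 were down-regulated, where 13.6% of all genes were up-regulated and 25.2% down-regulated. *Ucp3* was among these 20. The median log2 ratio was 1.204 over the members and -0.044 over all genes. The up-regulated members included 15 of 21 mitochondrial and 2 of 6 peroxisomal genes, and all 3 auxiliary enzymes and all 3 electron transfer genes were among them. From D2 to D7 only 6 members were up-regulated in WT cells (background 22.4%) and 1, *Ucp2*, was down-regulated (background 12.2%). The 6 were *Cpt1b*, *Acadm*, *Acox3*, *Ehhadh*, *Acaa1b*, and *Acot1*. Across D0 to D7, 23 members were up-regulated and 0 down-regulated, where the background was 15.6% and 17.4%.

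In Con cells, 9 members were up-regulated from D0 to D2 (background 17.3%) and 0 were down-regulated (background 23.4%), with a median log2 ratio of 0.71. With Rosi, 21 members were up-regulated in WT cells with PPARγ (background 17.0%) and 0 were down-regulated (background 16.2%), with a median of 1.11 over the members and 0.092 over all genes. Rescaled by that shift, 17 were up-regulated. These 21 held 15 of 21 mitochondrial and 4 of 6 peroxisomal genes. The members *Acadl*, *Hadh*, *Etfa*, *Pex11a*, and *Ucp2* were up-regulated in all 3 control arms (WT D0 to D2, Con D0 to D2, and Rosi in WT). Summed adipocyte markers were 266, 5995, and 5613 RPKM at D0, D2, and D7 in WT cells, 66.0 and 2575 RPKM at D0 and D2 in Con cells, and 293 and 3893 RPKM with DMSO and Rosi. Most of these sums came from *Fabp4* and *Lpl*, with 3249 and 2145 RPKM in WT cells at D2. Each of the other listed adipocyte markers was higher at D7 than at D2 in WT cells, such as *Adipoq* with 287 against 6.16 RPKM. The part of the adipocyte markers in the levels of the members was not tested.

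Before any induction, 8 of the 32 members (25.0%) differed over 2-fold between the highest and the lowest of the 3 control preadipocyte libraries (WT at D0, WT with PPARγ and DMSO, Con at D0), compared with 56.5% of all genes and 38.1% of genes at 1 RPKM or more. *Ucp3*, with at most 1 read in these libraries, was among the 8. *Acaa1b* was lowest in WT cells at D0, with 0.168 RPKM against 9.504 RPKM with PPARγ and DMSO and 9.61 RPKM in Con cells, a span of 57.2-fold. *Acot2* was highest there instead, with 28.1 RPKM against 4.18 and 6.10 RPKM, a span of 6.72-fold. *Acaa2* spanned 3.25-fold and *Acadvl* 2.80-fold. The experiments also differed in their vectors, and the study describes the cells of the ligand experiment as sub-confluent. Ratios below therefore stay within 1 experiment. Levels and shares ranked or compared over libraries of several experiments, as for *Acaa1b* and *Acot2*, carry these differences too.

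At D0, only *Pdk4* was up-regulated in K36M over WT cells (background 14.8%) and 0 members were down-regulated (background 12.0%). At D2, 6 members were higher over 2-fold in K36M cells (background 22.2%), namely *Cpt1a*, *Cpt1b*, *Acox3*, *Ehhadh*, *Acaa1b*, and *Pdk4*, and 3 were lower (background 9.90%), namely *Pex11a*, *Ucp2*, and *Ucp3*. The 6 are a smaller share of the members than the background of higher genes, and the 3 are close to the background of lower genes. At D7, 15 of the 32 members were down-regulated in K36M cells (background 13.2%) and 1, *Cpt1a*, was up-regulated (background 19.7%), and 29 of the 32 were lower. The median log2 ratio over the members went from 0.090 at D0 and -0.12 at D2 to -0.97 at D7, while over all genes it was 0.11, 0.11, and 0.13. With libraries rescaled by that shift, 17 members were down-regulated at D7 and 5 were up-regulated at D2.

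Within K36M cells, 18 members were up-regulated from D0 to D2 (background 16.5%) and 2, *Acot2* and *Ucp3*, were down-regulated (background 19.6%), and 13 members were on both lists, 13 of the 20 of WT and 13 of the 18 of K36M cells. From D2 to D7 the K36M cells had 7 down-regulated members (background 14.9%) and 1 up-regulated (background 21.5%), which was *Ucp3*. From D0 to D7 they had 10 up-regulated members (background 18.6%) and 1 down-regulated (background 16.0%). The difference between the K36M and WT responses from D0 to D2 had a median of 0.14 over 31 members, with 13 counting intervals below 0 and 12 above 0. It was -0.13 over the 21 mitochondrial members and 0.98 over the 6 peroxisomal members, where 3 intervals lay above 0 and 2 below. From D2 to D7 the median difference was -0.93, with 27 intervals below 0 and 2 above 0. Over those days it was -0.93 for the mitochondrial and -0.98 for the peroxisomal members. Summed adipocyte markers in K36M cells were 94.5, 2161, and 525 RPKM at D0, D2, and D7, and summed preadipocyte markers were 134, 131, and 630.1 RPKM against 328, 56.0, and 289.8 RPKM in WT cells. At D2, *Adipoq* was higher in K36M than in WT cells (10.6 and 6.16 RPKM), and the other listed adipocyte markers were lower. The part of either marker list in the lower D7 levels of the members was not tested.

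**Figure D2:**
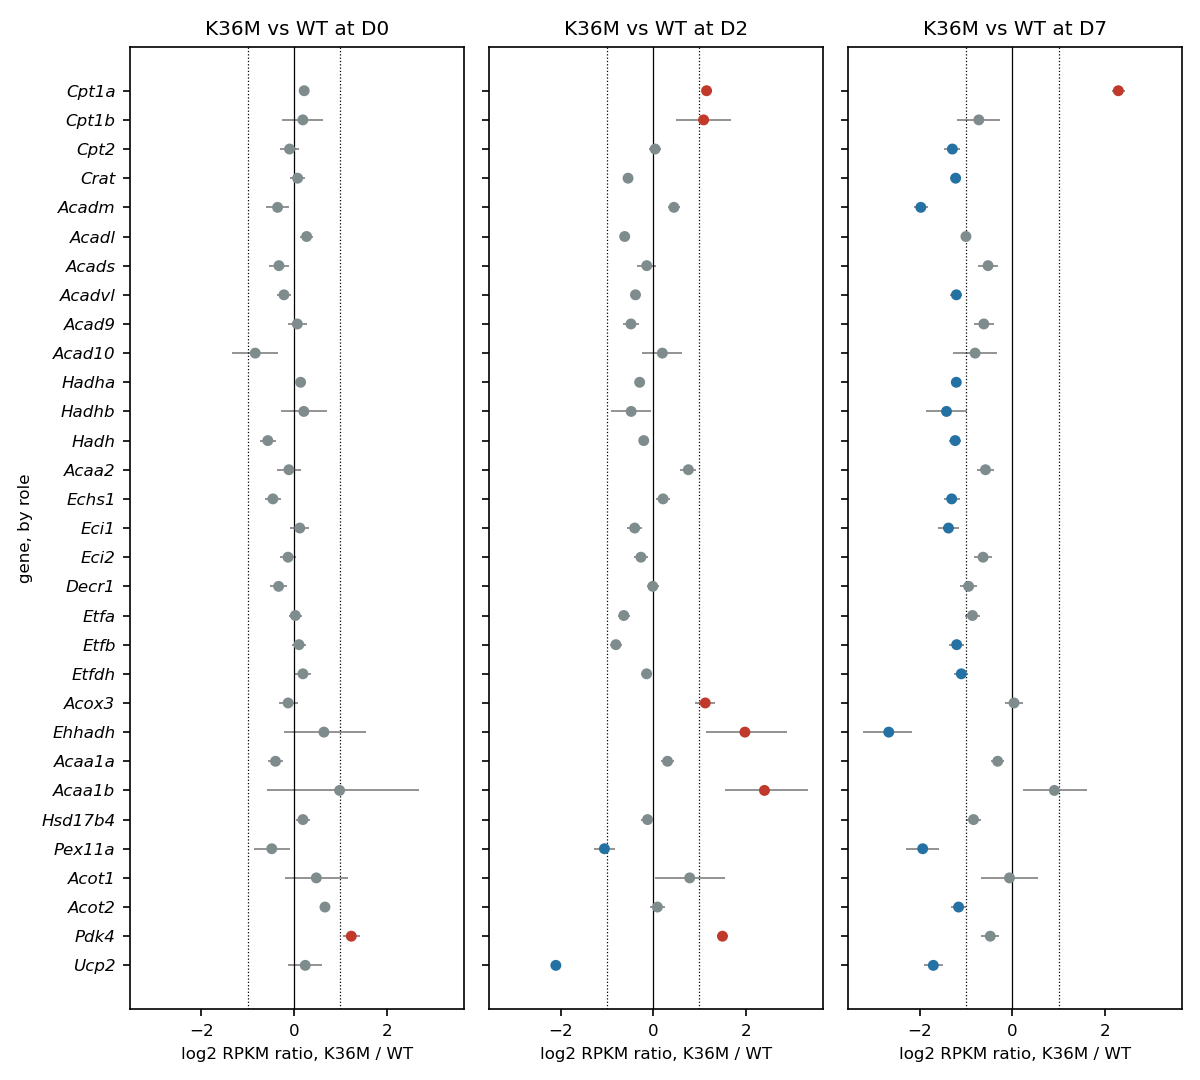
Log2 ratio of K36M to WT RPKM for 31 members (all but *Ucp3*) at D0, D2, and D7, with 95% counting intervals as bars. Red points are over 2-fold higher, blue points over 2-fold lower, and dotted lines mark 2-fold. The points scatter around 0 at D0 and most lie left of 0 at D7, with *Cpt1a* far to the right.

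With DMSO, 1 member, *Ucp2*, was higher over 2-fold in K36M cells with PPARγ (background 23.9%) and 1, *Ucp3*, was lower (background 8.31%). Rosi up-regulated 10 members in K36M cells (background 18.3%) and down-regulated 0 (background 15.0%), with a median log2 ratio of 0.58. Of the 21 members up-regulated by Rosi in WT cells, 8 were also among the 10 of K36M cells. Under Rosi, *Crat*, *Acad10*, *Hadh*, *Echs1*, and *Acaa1b* were lower over 2-fold in K36M cells (5 of 32, background 12.6%), and *Cpt1b*, *Ehhadh*, and *Acot2* were higher (3 of 32, background 28.4%). The response of K36M cells minus that of WT cells had a median of -0.57 over 31 members, with 20 intervals below 0 and 5 above 0. It was -0.57 over the 21 mitochondrial and -0.60 over the 6 peroxisomal members. The count of members lower in K36M cells with Rosi is near its background percentage and that of members higher is below it, and the summed adipocyte markers with DMSO and Rosi were 205 and 1487 RPKM in these cells.

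**Figure D3:**
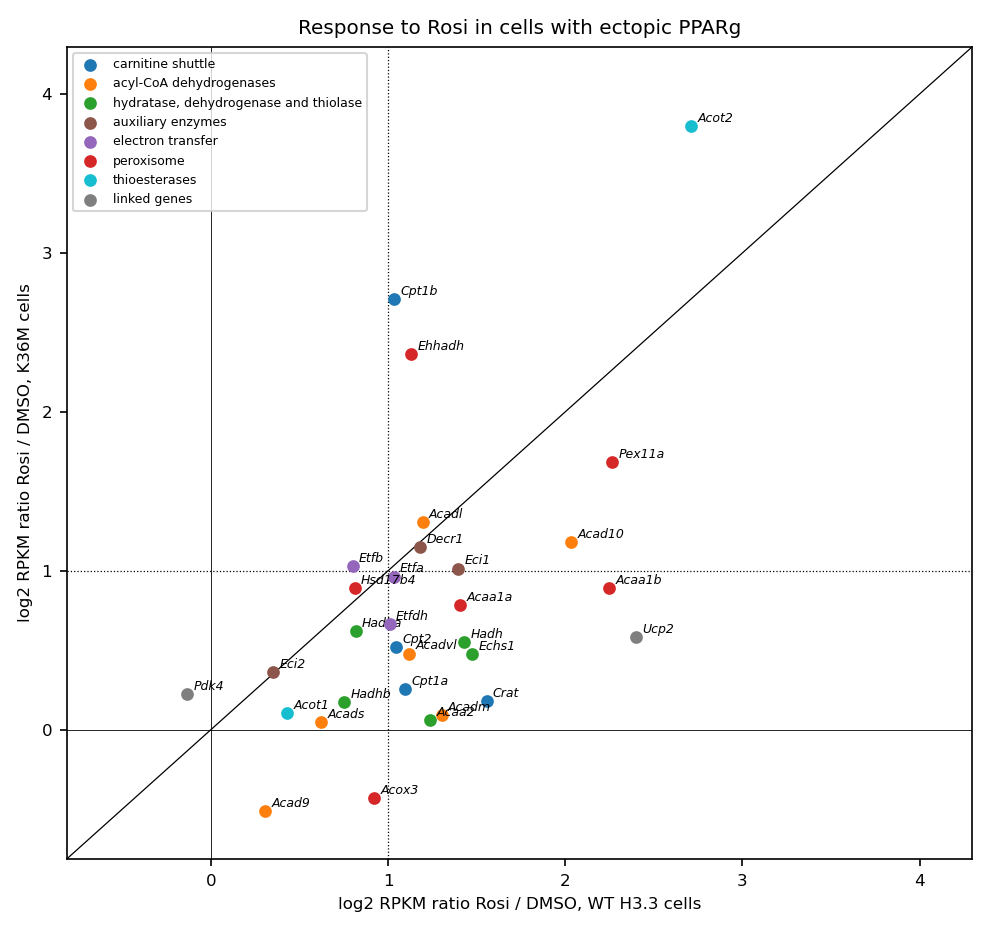
Log2 ratio of Rosi to DMSO RPKM in WT cells (horizontal) and K36M cells (vertical) with ectopic PPARγ, for 31 members colored by role. The solid diagonal marks equal responses and dotted lines mark 2-fold. Most points lie below the diagonal, and *Acot2*, *Cpt1b*, and *Ehhadh* lie farthest above it.

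At D0, *Cpt1a* was the only member higher over 2-fold in shNSD2 than in Con cells (background 13.5%), and *Crat*, *Ehhadh*, and *Acot2* were lower (background 18.1%). At D2, 12 of the 32 members were lower over 2-fold in shNSD2 cells (background 18.5%) and 0 were higher (background 12.0%), with a median log2 ratio of -0.53. These were 8 of 21 mitochondrial and 1 of 6 peroxisomal members, with *Acot2*, *Ucp2*, and *Ucp3*. Within shNSD2 cells, 4 members were up-regulated from D0 to D2 (background 16.9%) and 5 were down-regulated (background 24.5%). The response of shNSD2 cells minus that of Con cells had a median of -0.65 over 31 members, with 24 intervals below 0 and 0 above 0. For the mitochondrial members it was -0.73 and for the peroxisomal members -0.32. Summed adipocyte markers at D0 and D2 were 47.0 and 166 RPKM in shNSD2 cells. Summed preadipocyte markers were 226 and 36.4 RPKM in shNSD2 cells and 193 and 38.3 RPKM in Con cells. These sums hide opposite differences. *Dlk1* had 171 and 27.9 RPKM at D0 and D2 in shNSD2 cells against 38.1 and 3.51 RPKM in Con cells. *Pdgfra*, *Pdgfrb*, and *Ly6a* were lower in shNSD2 than in Con cells at both days, and *Cd34* was higher at D0 and lower at D2. The part of either marker list in the values of the members was not tested.

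**Figure D4:**
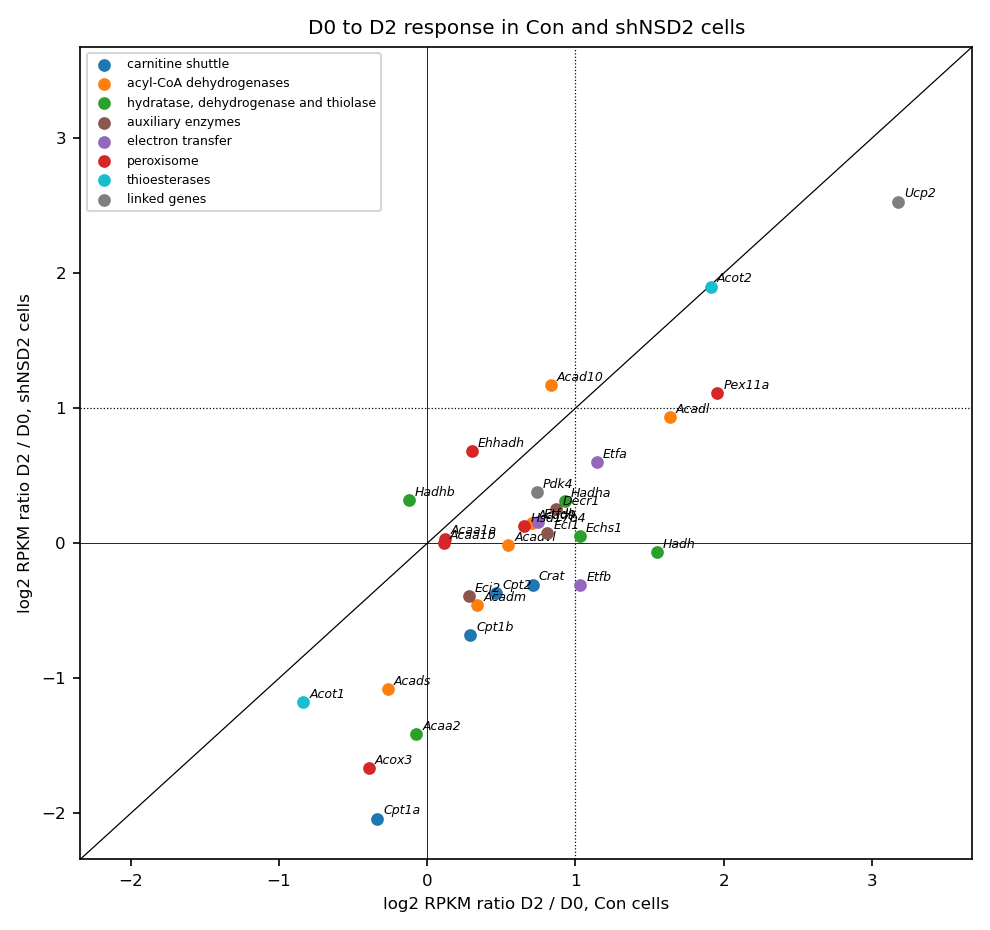
Log2 ratio of D2 to D0 RPKM in Con cells (horizontal) and shNSD2 cells (vertical) for 31 members colored by role. The solid diagonal marks equal responses and dotted lines mark 2-fold. Most points lie below the diagonal, with *Cpt1a* lowest, while *Acot2* lies on it.

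The carnitine shuttle moves long acyl chains across the mitochondrial membranes. *Cpt1a*, the liver isoform of the outer membrane transferase that limits entry (chr19:3323301-3385732 in mm9), had 13.4, 14.03, and 9.67 RPKM at D0, D2, and D7 in WT and 15.6, 31.2, and 47.3 RPKM in K36M cells. *Cpt1a* had 17.4 and 37.1 RPKM with DMSO and Rosi in WT and 21.9 and 26.1 RPKM in K36M cells, and 15.2 and 12.0 RPKM at D0 and D2 in Con cells against 62.02 and 15.1 RPKM in shNSD2 cells. Its highest library was shNSD2 at D0 and its lowest was WT at D7. K36M cells had a log2 ratio to WT cells of 0.22 (0.10 to 0.33) at D0, 1.15 (1.04 to 1.26) at D2, and 2.29 (2.16 to 2.43) at D7, when the other 3 shuttle genes were below their WT levels. At D0 the ratio of shNSD2 to Con cells was 2.03 (1.94 to 2.12), and by D2 it was 0.33 (0.21 to 0.45). Rosi up-regulated *Cpt1a* in WT cells by 1.10 on the log2 scale, and the difference of the K36M response was -0.84 (-0.97 to -0.71).

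*Cpt1b*, the muscle isoform of the same step, was low throughout, with 1.39, 0.778, and 2.98 RPKM at D0, D2, and D7 in WT and 1.58, 1.65, and 1.81 RPKM in K36M cells. *Cpt1b* had 1.22 and 2.51 RPKM with DMSO and Rosi in WT, 1.09 and 7.15 RPKM in K36M, 0.927 and 1.13 RPKM at D0 and D2 in Con, and 0.753 and 0.469 RPKM in shNSD2 cells. It was highest in K36M cells with Rosi, where its log2 ratio to DMSO was 2.71 (2.34 to 3.10), against 1.03 (0.61 to 1.47) in WT cells, a difference of 1.68 (1.12 to 2.23). *Cpt1b* made up 21.5% of the *Cpt1a* and *Cpt1b* sum in that library, and 23.6% in WT cells at D7. *Acta1* had 31.3 and 26.3 RPKM with DMSO and Rosi in WT and 67.5 and 62.8 RPKM in K36M cells of this experiment, and the other 5 muscle markers stayed near 0.

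*Cpt2*, the inner membrane transferase, had 8.38, 25.7, and 32.1 RPKM at D0, D2, and D7 in WT and 7.82, 26.5, and 13.1 RPKM in K36M cells. *Cpt2* had 13.1 and 27.0 RPKM with DMSO and Rosi in WT, 12.7 and 18.1 RPKM in K36M, 8.68 and 12.0 RPKM at D0 and D2 in Con, and 10.3 and 7.95 RPKM in shNSD2 cells. It was up-regulated to D2 alike in WT, 1.62 (1.46 to 1.78), and K36M cells, 1.76 (1.58 to 1.94), and the cells parted afterwards, with 0.32 (0.20 to 0.44) from D2 to D7 in WT and -1.01 (-1.20 to -0.83) in K36M cells. *Crat*, which transfers acetyl groups to carnitine, had 7.31, 37.0, and 34.0 RPKM at D0, D2, and D7 in WT and 7.70, 25.4, and 14.6 RPKM in K36M cells. *Crat* had 8.86 and 26.1 RPKM with DMSO and Rosi in WT, 9.74 and 11.02 RPKM in K36M, 10.2 and 16.6 RPKM at D0 and D2 in Con, and 3.84 and 3.11 RPKM in shNSD2 cells. *Crat* was the member of this group that was lower over 2-fold both in K36M cells with Rosi, -1.24 (-1.38 to -1.11), and in shNSD2 cells at D2, -2.42 (-2.62 to -2.22). In shNSD2 cells it was already lower at D0, -1.41 (-1.60 to -1.21).

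Acyl-CoA dehydrogenases open the mitochondrial cycle, each for a range of chain lengths. *Acadm*, for medium chains, had 7.83, 33.5, and 75.1 RPKM at D0, D2, and D7 in WT and 6.11, 45.7, and 19.1 RPKM in K36M cells. *Acadm* had 11.5 and 28.3 RPKM with DMSO and Rosi in WT, 14.8 and 15.8 RPKM in K36M, 11.3 and 14.3 RPKM at D0 and D2 in Con, and 14.7 and 10.7 RPKM in shNSD2 cells. It was higher in K36M than in WT cells at D2, 0.45 (0.33 to 0.57), and lower at D7, -1.97 (-2.13 to -1.82). The difference of the responses from D2 to D7 was -2.42 (-2.61 to -2.23). Rosi up-regulated *Acadm* in WT cells, 1.30 (1.14 to 1.47), and in K36M cells the ratio was 0.093 (-0.095 to 0.28), whose interval includes 0.

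*Acadl*, for long chains, had 19.4, 88.8, and 78.6 RPKM at D0, D2, and D7 in WT and 23.4, 58.0, and 39.3 RPKM in K36M cells. *Acadl* had 19.8 and 45.3 RPKM with DMSO and Rosi in WT, 22.3 and 55.0 RPKM in K36M, 18.5 and 57.5 RPKM at D0 and D2 in Con, and 13.6 and 26.002 RPKM in shNSD2 cells. Its response to Rosi was alike in WT, 1.196 (1.07 to 1.32), and K36M cells, 1.30 (1.19 to 1.42), and the interval of the difference, 0.11 (-0.063 to 0.28), included 0. The K36M response to D2 minus the WT response was -0.88 (-1.05 to -0.72), and the shNSD2 response minus the Con response was -0.70 (-0.91 to -0.50). At D2 *Acadl* was lower in shNSD2 than in Con cells, -1.15 (-1.26 to -1.03).

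*Acadvl*, for very long chains, had 16.5, 51.8, and 57.3 RPKM at D0, D2, and D7 in WT and 14.1, 39.8, and 24.9 RPKM in K36M cells. *Acadvl* had 46.1 and 100.2 RPKM with DMSO and Rosi in WT, 50.2 and 69.9 RPKM in K36M, 30.7 and 44.8 RPKM at D0 and D2 in Con, and 28.2 and 27.9 RPKM in shNSD2 cells. It was up-regulated to D2 in WT, 1.65 (1.53 to 1.78), and K36M cells, 1.49 (1.35 to 1.64), and was lower at D7 in K36M than in WT cells, -1.21 (-1.34 to -1.07). *Acad9*, whose product also helps to assemble the respiratory chain, had 5.07, 12.1, and 9.25 RPKM at D0, D2, and D7 in WT and 5.31, 8.69, and 6.05 RPKM in K36M cells. *Acad9* had 7.04 and 8.71 RPKM with DMSO and Rosi in WT, 7.01 and 4.91 RPKM in K36M, 5.32 and 8.67 RPKM at D0 and D2 in Con, and 6.91 and 7.67 RPKM in shNSD2 cells. *Acad9* was over 2-fold in 1 comparison, WT cells from D0 to D2, 1.26 (1.09 to 1.43). *Acads*, for short chains, ranged from 8.42 to 34.0 RPKM over the 14 libraries and was over 2-fold only from D0 to D2 in shNSD2 cells, -1.08 (-1.26 to -0.91). *Acad10* ranged from 0.442 to 2.36 RPKM.

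The members of the middle and last steps of the cycle include the trifunctional protein, whose subunits are encoded by *Hadha* (alpha, hydratase and long-chain dehydrogenase) and *Hadhb* (beta, thiolase). These genes stand head to head on chromosome 5, where mm9 places *Hadha* on the minus strand (chr5:30444841-30481702) and *Hadhb* on the plus strand (chr5:30481788-30511133). In the RefSeq promoter table of build GRCm38.p6 their start sites lie 272 bases apart, and the 250 bases before the *Hadhb* start (chr5:30155003-30155252, plus strand) are shown because both genes share most of them. Capitals mark the 228 bases that also lie within 250 bases of the *Hadha* start, on its other strand.
Hadhb upstream: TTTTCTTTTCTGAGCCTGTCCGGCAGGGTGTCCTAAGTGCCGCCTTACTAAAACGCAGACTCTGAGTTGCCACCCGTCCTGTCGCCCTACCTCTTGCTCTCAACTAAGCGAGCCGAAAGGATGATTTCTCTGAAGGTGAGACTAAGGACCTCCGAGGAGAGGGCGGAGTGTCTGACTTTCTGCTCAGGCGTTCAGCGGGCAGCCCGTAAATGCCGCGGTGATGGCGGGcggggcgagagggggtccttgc

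*Hadha* ranged from 24.9 RPKM in Con cells at D0 to 70.03 RPKM in WT cells at D7. *Hadhb* had 1.63, 3.81, and 6.63 RPKM at D0, D2, and D7 in WT, 1.89, 2.74, and 2.48 RPKM in K36M, 2.42 and 2.21 RPKM at D0 and D2 in Con, and 1.796 and 2.24 RPKM in shNSD2 cells. With DMSO and Rosi, *Hadhb* had 2.26 and 3.81 RPKM in WT and 2.95 and 3.32 RPKM in K36M cells. The beta subunit gene made up between 4.47% and 8.84% of the RPKM of both subunit genes over the 14 libraries. Of the 32-base words of the *Hadhb* transcript, 89.6% occur again elsewhere in mm9, against 0.226% for *Hadha*, and the part this has in the low *Hadhb* values was not tested. Both genes were up-regulated from D0 to D7 in WT cells, 1.27 (1.19 to 1.35) for *Hadha* and 2.02 (1.61 to 2.45) for *Hadhb*, and both were lower in K36M cells at D7, -1.21 (-1.30 to -1.12) and -1.42 (-1.87 to -0.98).

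*Hadh*, the dehydrogenase for medium and short chains, had 20.2, 96.1, and 76.9 RPKM at D0, D2, and D7 in WT and 13.6, 83.4, and 32.8 RPKM in K36M cells. *Hadh* had 24.9 and 67.1 RPKM with DMSO and Rosi in WT, 20.1 and 29.5 RPKM in K36M, 16.7 and 48.7 RPKM at D0 and D2 in Con, and 21.6 and 20.6 RPKM in shNSD2 cells. It was up-regulated in all 3 control arms, 2.25 (2.13 to 2.37) in WT and 1.55 (1.41 to 1.69) in Con cells from D0 to D2 and 1.43 (1.32 to 1.55) with Rosi. In shNSD2 cells it did not move beyond counting error, -0.065 (-0.23 to 0.10), which left a difference from Con cells of -1.61 (-1.82 to -1.40). K36M cells up-regulated it to D2, 2.61 (2.46 to 2.76), and down-regulated it to D7, -1.35 (-1.48 to -1.22).

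*Acaa2*, the mitochondrial thiolase, had 7.95, 18.04, and 33.1 RPKM at D0, D2, and D7 in WT and 7.35, 30.5, and 22.2 RPKM in K36M cells. *Acaa2* had 25.8 and 60.9 RPKM with DMSO and Rosi in WT, 30.5 and 31.8 RPKM in K36M, 22.4 and 21.3 RPKM at D0 and D2 in Con, and 15.3 and 5.74 RPKM in shNSD2 cells. It was up-regulated by Rosi in WT cells, 1.24 (1.12 to 1.36), and the ratio in K36M cells was 0.058 (-0.088 to 0.20). In shNSD2 cells *Acaa2* was down-regulated from D0 to D2, -1.41 (-1.69 to -1.14), while Con cells gave -0.073 (-0.23 to 0.086). In K36M cells at D2 it was higher than in WT cells, 0.76 (0.59 to 0.93).

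*Echs1*, the short-chain enoyl-CoA hydratase, had 22.0, 31.2, and 52.6 RPKM at D0, D2, and D7 in WT and 16.0, 36.1, and 21.3 RPKM in K36M cells. *Echs1* had 12.5 and 34.8 RPKM with DMSO and Rosi in WT, 11.2 and 15.6 RPKM in K36M, 13.1 and 26.7 RPKM at D0 and D2 in Con, and 18.5 and 19.2 RPKM in shNSD2 cells. Rosi up-regulated it in WT cells, 1.48 (1.30 to 1.65), and K36M cells responded by 0.48 (0.25 to 0.70), a difference of -1.001 (-1.28 to -0.73). Its level in K36M cells was above WT at D2, 0.21 (0.066 to 0.36), and below it at D7, -1.31 (-1.48 to -1.14).

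Because PPARγ with its partner RXR binds a direct repeat of AGGTCA with 1 base between the copies, promoters were searched for it on both strands with up to 2 mismatches. RefSeq (GRCm38.p6) gave a window from 250 bases before to 50 bases after the start site for 26 of the 32 members. A match lay in 3 of these 26, *Echs1*, *Etfa*, and *Ucp3*, and in 3.86% of all 32851 windows. The site of estrogen-related receptors, TCAAGGTCA, which contains AGGTCA and can overlap the repeat, had an exact match in 0 of the 26 windows and in 0.423% of all windows. The 250 bases before the start sites of *Echs1* (chr7:140116422-140116671, minus strand) and *Etfa* (chr9:55512244-55512493, minus strand) are shown as the expressed members with a match, which is in capitals and starts 83 and 77 bases before the start site. No binding data were used here, and a match describes letters only.
Echs1 upstream: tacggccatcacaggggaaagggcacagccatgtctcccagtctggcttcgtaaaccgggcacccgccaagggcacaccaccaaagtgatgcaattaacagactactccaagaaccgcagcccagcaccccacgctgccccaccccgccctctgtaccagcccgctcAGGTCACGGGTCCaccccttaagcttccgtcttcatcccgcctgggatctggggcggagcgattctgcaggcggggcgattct
Etfa upstream: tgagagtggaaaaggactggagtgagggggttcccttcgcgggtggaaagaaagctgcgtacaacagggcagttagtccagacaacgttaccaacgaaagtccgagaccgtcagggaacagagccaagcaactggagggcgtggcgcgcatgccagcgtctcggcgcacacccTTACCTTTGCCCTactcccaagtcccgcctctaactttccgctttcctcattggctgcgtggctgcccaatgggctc

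The auxiliary enzymes handle double bonds of unsaturated chains. *Eci1*, an enoyl-CoA isomerase, had 16.5, 46.7, and 44.8 RPKM at D0, D2, and D7 in WT and 18.0, 35.4, and 17.3 RPKM in K36M cells. *Eci1* had 16.9 and 44.3 RPKM with DMSO and Rosi in WT, 20.8 and 42.0 RPKM in K36M, 18.1 and 31.7 RPKM at D0 and D2 in Con, and 16.0 and 16.9 RPKM in shNSD2 cells. Rosi up-regulated it in both WT, 1.39 (1.22 to 1.57), and K36M cells, 1.01 (0.84 to 1.18), and at D7 it was lower in K36M cells, -1.38 (-1.60 to -1.16).

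*Eci2*, a related isomerase, had 18.3, 37.0, and 32.3 RPKM at D0, D2, and D7 in WT and 16.7, 30.8, and 20.9 RPKM in K36M cells. *Eci2* had 26.9 and 34.4 RPKM with DMSO and Rosi in WT, 25.1 and 32.2 RPKM in K36M, 24.7 and 30.1 RPKM at D0 and D2 in Con, and 18.2 and 13.9 RPKM in shNSD2 cells. It was just over 2-fold up in WT cells by D2, 1.01 (0.86 to 1.16), and lower in shNSD2 than in Con cells at D2, -1.12 (-1.30 to -0.94). *Decr1*, the dienoyl-CoA reductase, had 9.53, 20.4, and 20.9 RPKM at D0, D2, and D7 in WT and 7.56, 20.3, and 10.9 RPKM in K36M cells. *Decr1* had 7.43 and 16.8 RPKM with DMSO and Rosi in WT, 7.73 and 17.1 RPKM in K36M, 7.80 and 14.3 RPKM at D0 and D2 in Con, and 9.40 and 11.2 RPKM in shNSD2 cells. The Rosi responses of *Decr1* in WT, 1.18 (1.02 to 1.35), and K36M cells, 1.15 (0.98 to 1.31), differed by less than counting error.

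The electron transfer genes pass on what the dehydrogenases take from the acyl chain, and *Etfb* had the highest median level of all members. *Etfb*, the beta subunit of the electron transfer flavoprotein, had 42.9, 129, and 99.9 RPKM at D0, D2, and D7 in WT and 46.2, 73.6, and 43.5 RPKM in K36M cells. *Etfb* had 69.4 and 121 RPKM with DMSO and Rosi in WT, 69.4 and 142 RPKM in K36M, 46.9 and 96.1 RPKM at D0 and D2 in Con, and 47.2 and 38.1 RPKM in shNSD2 cells. It was up-regulated from D0 to D2 in WT, 1.58 (1.46 to 1.71), and Con cells, 1.03 (0.91 to 1.16), and the ratio in shNSD2 cells was -0.31 (-0.47 to -0.14). The K36M response minus the WT response was -0.91 (-1.10 to -0.72) to D2 and 0.23 (0.077 to 0.38) with Rosi.

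*Etfa*, the alpha subunit, had 26.8, 57.4, and 51.7 RPKM at D0, D2, and D7 in WT and 27.2, 37.0, and 28.5 RPKM in K36M cells. *Etfa* had 27.2 and 55.6 RPKM with DMSO and Rosi in WT, 27.1 and 52.9 RPKM in K36M, 22.2 and 49.0 RPKM at D0 and D2 in Con, and 16.0 and 24.3 RPKM in shNSD2 cells. With Rosi the WT and K36M responses of *Etfa*, whose promoter is printed above, differed by less than counting error, -0.068 (-0.25 to 0.11). *Etfdh*, which hands the electrons to ubiquinone, had 11.5, 35.3, and 39.1 RPKM at D0, D2, and D7 in WT and 13.1, 31.98, and 18.3 RPKM in K36M cells. *Etfdh* had 18.2 and 36.6 RPKM with DMSO and Rosi in WT, 19.1 and 30.3 RPKM in K36M, 12.6 and 21.1 RPKM at D0 and D2 in Con, and 15.3 and 17.1 RPKM in shNSD2 cells. *Etfa* and *Etfb* were lower over 2-fold in shNSD2 than in Con cells at D2, -1.01 (-1.15 to -0.88) and -1.33 (-1.48 to -1.19), and *Etfdh* was lower by less, -0.30 (-0.45 to -0.16).

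Among the peroxisomal members, *Pex11a*, which promotes peroxisome division, had 7.61, 42.0, and 30.6 RPKM at D0, D2, and D7 in WT and 5.44, 20.2, and 8.01 RPKM in K36M cells. *Pex11a* had 3.82 and 18.4 RPKM with DMSO and Rosi in WT, 4.76 and 15.3 RPKM in K36M, 4.49 and 17.4 RPKM at D0 and D2 in Con, and 5.81 and 12.6 RPKM in shNSD2 cells. It was up-regulated in all 6 responses to D2 or Rosi, from 1.11 (0.74 to 1.49) in shNSD2 cells to 2.46 (2.20 to 2.73) in WT cells. It was the only peroxisomal member lower over 2-fold in K36M than in WT cells at D2, -1.05 (-1.28 to -0.83), and it remained lower at D7, -1.93 (-2.29 to -1.59).

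*Ehhadh*, the peroxisomal bifunctional enzyme of straight chains, had 0.311, 0.296, and 6.21 RPKM at D0, D2, and D7 in WT and 0.485, 1.17, and 0.979 RPKM in K36M cells. *Ehhadh* had 0.550 and 1.205 RPKM with DMSO and Rosi in WT, 0.504 and 2.60 RPKM in K36M, 0.589 and 0.725 RPKM at D0 and D2 in Con, and 0.153 and 0.245 RPKM in shNSD2 cells. It was near or below 1 RPKM in most libraries and stood out in WT cells at D7, where 249 reads were counted against 17 at D2, a log2 ratio of 4.39 (3.68 to 5.20). Its K36M to WT ratio at D7 was -2.67 (-3.21 to -2.16), the lowest among the members. *Hsd17b4*, the other bifunctional enzyme, was higher in every library, from 11.03 to 33.3 RPKM.

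*Acox3*, an oxidase of branched chains, had 5.15, 4.15, and 9.20 RPKM at D0, D2, and D7 in WT and 4.71, 9.06, and 9.46 RPKM in K36M cells. *Acox3* had 3.91 and 7.40 RPKM with DMSO and Rosi in WT, 5.06 and 3.75 RPKM in K36M, 5.26 and 4.001 RPKM at D0 and D2 in Con, and 8.75 and 2.76 RPKM in shNSD2 cells. It was below its D0 level at D2 in WT cells, -0.31 (-0.52 to -0.10), and in Con cells, -0.39 (-0.61 to -0.18), and was higher over 2-fold in K36M than in WT cells at D2, 1.12 (0.91 to 1.34). In shNSD2 cells it was down-regulated to D2, -1.66 (-1.90 to -1.43). The Rosi responses had opposite signs, 0.92 (0.72 to 1.13) in WT and -0.43 (-0.68 to -0.19) in K36M cells, neither over 2-fold.

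*Acaa1a* and *Acaa1b* encode the peroxisomal thiolases and lie near each other on chromosome 9 (chr9:119250412-119259413 and chr9:119057141-119066211 in mm9). *Acaa1a* had 19.2, 27.6, and 38.4 RPKM at D0, D2, and D7 in WT, 14.6, 34.2, and 30.9 RPKM in K36M, 15.8 and 17.2 RPKM at D0 and D2 in Con, and 16.2 and 16.6 RPKM in shNSD2 cells, and with DMSO and Rosi 13.4 and 35.5 RPKM in WT and 12.7 and 22.0 RPKM in K36M cells. *Acaa1b* had 0.168, 0.470, and 1.30 RPKM at D0, D2, and D7 in WT, 0.332, 2.49, and 2.45 RPKM in K36M, 9.61 and 10.4 RPKM at D0 and D2 in Con, and 11.1 and 11.1 RPKM in shNSD2 cells, and with DMSO and Rosi 9.504 and 45.2 RPKM in WT and 11.02 and 20.4 RPKM in K36M cells. *Acaa1b* thus made up 0.867% to 7.36% of the RPKM of both thiolase genes in the 6 adipogenesis libraries and 37.7% to 56.0% in the other 8, with no overlap. The transcripts share 747 words of 32 bases, 43.3% of those of *Acaa1a* and 45.1% of those of *Acaa1b*, and how the authors' counting divided such reads is not given in the sources used here, so the split between both genes is uncertain. The sum of both was 19.4, 28.0, and 39.7 RPKM at D0, D2, and D7 in WT cells and 22.9 and 80.7 RPKM with DMSO and Rosi in WT cells with PPARγ. In the *Nsd2* experiment the sum lay between 25.4 and 27.7 RPKM in all 4 libraries. Rosi up-regulated both genes in WT cells, 1.41 (1.25 to 1.56) and 2.25 (2.08 to 2.43).

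**Figure D5:**
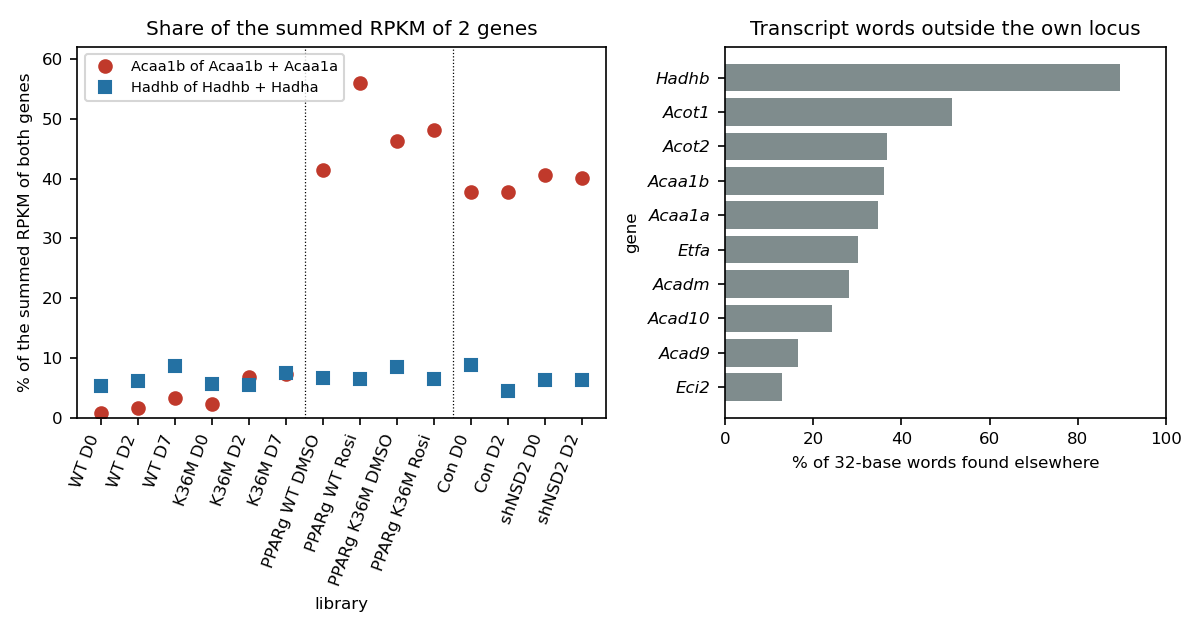
Left, the percentage of the summed RPKM of 2 genes that came from *Acaa1b* (circles, with *Acaa1a*) and from *Hadhb* (squares, with *Hadha*) in the 14 libraries, with dotted lines between the 3 experiments. Right, the percentage of 32-base words of a member's transcript found elsewhere in mm9, for the 10 members at 5% or more. *Acaa1b* steps up between the adipogenesis libraries and the other libraries, *Hadhb* stays below 9%, and *Hadhb* has the highest percentage of repeated words.

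For 22 of the 32 members, under 5% of the 32-base words of the transcript occurred elsewhere in mm9. The exceptions with the highest percentages were *Hadhb*, *Acot1* (51.4%), *Acot2* (36.7%), *Acaa1b* (36.1%), *Acaa1a* (34.6%), *Etfa* (30.3%), and *Acadm* (28.1%). Levels of these genes are uncertain to the extent that reads were shared, and this was not tested.

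The thioesterase genes *Acot1* (cytosol) and *Acot2* (mitochondria) release free fatty acids from acyl-CoA and share 637 words of 32 bases. *Acot2* had 28.1, 19.9, and 38.0 RPKM at D0, D2, and D7 in WT and 44.6, 21.2, and 17.0 RPKM in K36M cells. *Acot2* had 4.18 and 27.4 RPKM with DMSO and Rosi in WT, 5.004 and 69.5 RPKM in K36M, 6.10 and 23.0 RPKM at D0 and D2 in Con, and 2.92 and 10.9 RPKM in shNSD2 cells. Its highest library was K36M with Rosi, where the ratio to DMSO was 3.80 (3.61 to 3.99) against 2.71 (2.49 to 2.94) in WT cells, a difference of 1.08 (0.80 to 1.37). From D0 to D2 it was below its D0 level in WT, -0.50 (-0.62 to -0.37), and K36M cells, -1.07 (-1.21 to -0.94), and up-regulated in Con, 1.91 (1.72 to 2.11), and shNSD2 cells, 1.90 (1.60 to 2.21). The D0 level of *Acot2* in WT cells was above that in Con cells, as given above. *Acot1* ranged from 1.01 to 2.50 RPKM over all libraries.

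The linked genes set the fuel choice and the use of the proton gradient. *Pdk4*, a kinase that shuts off pyruvate oxidation, had 4.64, 12.6, and 12.5 RPKM at D0, D2, and D7 in WT and 10.9, 35.5, and 8.99 RPKM in K36M cells. *Pdk4* had 8.68 and 7.91 RPKM with DMSO and Rosi in WT, 9.95 and 11.6 RPKM in K36M, 5.20 and 8.68 RPKM at D0 and D2 in Con, and 10.3 and 13.4 RPKM in shNSD2 cells. It was higher in K36M than in WT cells at D0, 1.23 (1.05 to 1.42), and D2, 1.496 (1.37 to 1.62), and lower at D7, -0.47 (-0.66 to -0.28). It did not move beyond counting error with Rosi in WT cells, -0.13 (-0.31 to 0.041). The ratio of shNSD2 to Con cells was 0.98 (0.79 to 1.18) at D0, just inside 2-fold.

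*Ucp2*, a carrier of the mitochondrial inner membrane, had 1.40, 72.8, and 15.8 RPKM at D0, D2, and D7 in WT and 1.66, 17.0, and 4.85 RPKM in K36M cells. *Ucp2* had 0.823 and 4.34 RPKM with DMSO and Rosi in WT, 3.67 and 5.504 RPKM in K36M, 0.833 and 7.53 RPKM at D0 and D2 in Con, and 0.486 and 2.81 RPKM in shNSD2 cells. Among the 31 members with enough reads, it had the largest D0 to D2 response of WT cells, 5.70 (5.44 to 5.97), and then was down-regulated to D7, -2.20 (-2.31 to -2.10). The K36M response minus the WT response was -2.34 (-2.71 to -1.98) to D2 and -1.82 (-2.25 to -1.39) with Rosi. In K36M cells with DMSO it was already higher than in WT cells, 2.16 (1.79 to 2.54). At D2 it was lower in shNSD2 than in Con cells, -1.42 (-1.66 to -1.19).

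Of 39 other genes of beta-oxidation and its supply, 15 were up-regulated (background 13.6%) and 6 down-regulated (background 25.2%) by D2 in the WT course. Rosi up-regulated 11 (background 17.0%) and down-regulated 0 (background 16.2%) in WT cells with PPARγ. At D7, 17 of the 39 were lower over 2-fold in K36M than in WT cells (background 13.2%) and 4 were higher (background 19.7%). At D2, 14 were lower in shNSD2 than in Con cells (background 18.5%) and 1 was higher (background 12.0%). The largest responses were those of *Acsl1*, which activates long fatty acids to acyl-CoA. *Acsl1* had 11.6, 402, and 205 RPKM at D0, D2, and D7 in WT, 6.44, 57.7, and 15.8 RPKM in K36M, 4.92 and 153 RPKM at D0 and D2 in Con, and 2.17 and 12.9 RPKM in shNSD2 cells, and with DMSO and Rosi 4.66 and 146 RPKM in WT and 2.61 and 8.28 RPKM in K36M cells. It was lower in K36M than in WT cells at D7, -3.70 (-3.80 to -3.59), and with Rosi, -4.14 (-4.29 to -3.996), and lower in shNSD2 than in Con cells at D2, -3.57 (-3.67 to -3.47). Over the members other than *Ucp3*, the lowest ratios in these 3 comparisons were those of *Ehhadh* at D7, given above, and of *Crat* with Rosi and at D2, -1.24 and -2.42.

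*Scp2*, which carries a peroxisomal thiolase, was up-regulated by 2.08 (1.93 to 2.23) to D2 in WT cells and by 1.59 (1.47 to 1.71) with Rosi. In the other direction, *Cpt1c*, the brain isoform of the outer membrane transferase, was down-regulated from 11.4 to 4.37 RPKM, -1.39 (-1.61 to -1.17), and *Acsl5* from 14.9 to 7.31 RPKM, -1.03 (-1.19 to -0.86). *Acadsb* followed with -0.70 (-0.85 to -0.56), within 2-fold. With Rosi the lowest ratios were those of *Acsl5*, -0.56 (-0.70 to -0.43), *Cpt1c*, -0.25 (-0.45 to -0.051), and *Pecr*, -0.25 (-0.74 to 0.24), all within 2-fold.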

How the data were processed

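Levels of 14 RNA-Seq libraries were taken from the RPKM values as the authors deposited them, for 29082 RefSeq transcripts, with no pseudocount. The submitters' processing notes name mm9, CASAVA 1.8.2, and SICER. The aligner and counter of the RNA-Seq reads, the use of strand, and the treatment of reads that match several genes are not given in the sources used here. The ChIP-Seq samples were not analysed here. No column of another series was present.

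Symbols were found for 28436 transcripts (97.8%) with RefSeq, and a gene's level is that of the transcript whose RPKM averaged highest over the libraries. GENCODE M1 gave gene positions, annotated lengths, and transcript sequences. Whole reads were recovered for all 26946 transcripts above 0 in at least 2 libraries, because low values are multiples of what 1 read is worth. Recovery and calls were tested on simulated data. Genes above 0 in either library of a pair were counted, a ratio over 2-fold was a call, and with 1 library per condition no test was made. A floor of 3 reads corresponds to 0.123 to 0.246 RPKM for a transcript of 1 kb. Intervals of ratios are Clopper-Pearson and those of differences between responses are normal intervals on the log2 scale, and both cover counting error only. Members and lists were chosen with earlier results of these data known. Members at 5 RPKM or more in at least 1 library that were over 2-fold in 1 of 6 comparisons (WT or Con D0 to D2, Rosi in WT, K36M against WT at D2 or with Rosi, shNSD2 against Con at D2) have all values printed (26 of 32). Of the other genes and regulators, those with the 3 largest ratios in each direction in WT cells at D2 or with Rosi are named, except 1 that is not reported here. Of 37 listed markers, 36 were matched, all but *Cd68* of the macrophage list. Alternatives were pseudocounts of 0.1 and 1, a filter at 1 RPKM, rescaling by the median ratio, summed transcripts, and intervals excluding 1. Python 3.11.15 with numpy 2.4.6, pandas 2.3.3, scipy 1.17.1, numba 0.67.0, and matplotlib 3.10.9 was used.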

Additional observations from a re-analysis of the deposited data

Results flagged for a closer look

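*Cpt2*, *Acadm*, and *Etfb* moved in opposite directions in control and perturbed cells, with both counting intervals clear of 0 and at least 1 of both ratios over 2-fold. *Cpt2* had a log2 ratio of 0.32 from D2 to D7 in WT cells and -1.01 in K36M cells. *Acadm* had 1.17 in WT and -1.26 in K36M cells over the same days. *Etfb* had 1.03 from D0 to D2 in Con cells and -0.31 in shNSD2 cells. With 1 library per condition these differences were not tested.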

How the results depend on the processing

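Each count of members over 2-fold, for the 17 comparisons, was recomputed under 6 alternatives. A pseudocount of 1 moved 3 of the 17 counts by more than 1.5 times, since it pulls the ratios of low genes toward 0. The up-regulated members were then 3 for WT D2 to D7 and 3 for K36M against WT at D2, and the down-regulated member was 1 for shNSD2 against Con at D0. The other 5 alternatives left all 17 counts within 1.5 times. Of 168 log2 ratios of named members, 33 moved beyond their counting interval with a pseudocount of 1 and 5 with rescaling by the median ratio, and none of these changed direction. Rescaling divides by a median ratio whose log2 was over 0.1 for K36M against WT at D0, D2, and D7 (0.11, 0.11, and 0.13) and at most 0.093 in size elsewhere. No paired analysis was possible because each condition had 1 library. For the same reason no replicate could be left out, and the error between cultures is unknown. Ratios of *Ehhadh* and *Acaa1b* in the adipogenesis libraries rest on few reads, with 17 reads of *Ehhadh* and 15 of *Acaa1b* in WT cells at D2.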

Other observations

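Of 16 listed regulators of fatty acid oxidation, 8 were up-regulated (background 13.6% of all genes) and 1 down-regulated (background 25.2%) to D2 in WT cells. In Con cells 9 were up-regulated (background 17.3%) and 0 down-regulated (background 23.4%). Calls of *Esrrg*, which had at most 0.426 RPKM and was the 1 lower, rest on few reads, and so does that of *Rxrg*, which was among the 8 on 6 reads at D2 against 1 at D0. In K36M against WT cells at D7, 10 of the 16 were lower over 2-fold (background 13.2%) and 0 higher (background 19.7%), and in shNSD2 against Con cells at D2, 8 were lower (background 18.5%) and 0 higher (background 12.0%). These 8 include *Rxrg*, *Esrrb*, and *Esrrg*, each at or below 0.291 RPKM in both libraries. The 9 of Con cells include *Esrrb*, listed at 0 at D0 and at 0.0591 RPKM at D2. *Lpin1*, a cofactor and phosphatidate phosphatase, had 5.89, 95.9, and 93.1 RPKM at D0, D2, and D7 in WT, 7.06, 40.7, and 16.6 RPKM in K36M, 2.98 and 29.8 RPKM at D0 and D2 in Con, and 7.79 and 6.196 RPKM in shNSD2 cells. *Ppargc1b*, a coactivator of mitochondrial genes, had 0.844, 9.13, and 10.4 RPKM at D0, D2, and D7 in WT, 2.26, 5.54, and 2.40 RPKM in K36M, 0.360 and 6.51 RPKM at D0 and D2 in Con, and 0.863 and 1.24 RPKM in shNSD2 cells. Its relative *Ppargc1a* was lower in level, with 0.210, 1.08, and 6.32 RPKM in WT and 0.0467, 0.136, and 0.228 RPKM in K36M cells at D0, D2, and D7, and its log2 ratio at D7 was -4.79 (-5.56 to -4.12). Among those at 5 RPKM or more, *Sirt1* was the only regulator with a ratio below 0 in the D0 to D2 response of WT cells, -0.43 (-0.57 to -0.29).

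With Rosi in WT cells with PPARγ, 7 of the 16 were up-regulated (background 17.0%) and 1 down-regulated (background 16.2%), where the call of *Esrrb*, listed at 0 with Rosi, and that of *Esrrg*, listed at 0 with DMSO, rest on under 0.04 RPKM. *Ppargc1b* went from 0.390 to 6.43 RPKM, 4.04 (3.52 to 4.62), *Klf15* from 0.241 to 3.06 RPKM, 3.67 (2.81 to 4.66), and *Lpin1* from 4.18 to 33.1 RPKM, 2.99 (2.85 to 3.13). In K36M cells the responses of *Ppargc1b* and *Lpin1* were 1.38 (0.88 to 1.89) and 0.31 (0.11 to 0.50), while that of *Klf15* was 4.34 (2.87 to 6.28) on 42 reads with Rosi against 4 with DMSO. The lowest Rosi ratios in WT cells were -0.33 (-0.45 to -0.21) for *Esrra*, -0.084 (-0.18 to 0.0078) for *Pparg*, and -0.053 (-0.18 to 0.073) for *Ppard*, all within 2-fold. *Pparg* reads from the vector, if counted here, were not separated from those of the endogenous gene.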
